A study of Mus musculus with 12 samples.

Results

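Nuclear factor I proteins are transcription factors that bind DNA as dimers, at sites made of TTGGC and its inverted copy GCCAA. The mouse has 4 such genes, Nfia, Nfib, Nfic and Nfix, and their proteins share a DNA-binding and dimerization part at the amino end and differ more toward the other end. In the nervous system Nfia and Nfib are known for the onset of gliogenesis and for the activation of astrocyte genes such as Gfap, and Nfix is known from neural stem cells that have left the cell cycle. Nfic is expressed in many tissues and is best known from tooth root formation.

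The 4 members were the rows of the count table that carried these symbols, 4 of 17365 genes, and all 4 were among the 13312 genes that passed the filter on low counts. Bulk RNA-seq was measured in 12 libraries of adherent neural stem cells (NSCs) grown from the subventricular zone of mice 6 to 8 weeks old. Proliferating NSCs were kept in EGF and FGF2 (EGF/FGF), dormant quiescent NSCs (d-qNSCs) were given BMP-4 (BMP) and primed quiescent NSCs (p-qNSCs) were given BMP-4 with FGF2 (BMP/FGF), each factor at 10 ng/ml and for 3 days. To induce quiescence the study withdrew EGF, and BMP held no added FGF2. Comparisons with EGF/FGF therefore cannot tell added BMP-4 apart from the loss of these factors or from cell cycle exit. Each condition held 4 libraries, 2 of the ANS4 line, from MF1 mice, and 2 of the BL6 line, from C57BL6 mice. With 1 line per strain, a difference between lines cannot be told apart from one between strains or derivations. The study describes the RNA-seq replicates as biological, and neither it nor the labels say whether they were separate cultures of a line, so the p-values measure the spread between these libraries.

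Library totals lay between 18069052 and 19451818 counts, and members were covered by 1972 counts (Nfic in a BL6 BMP/FGF library) to 10377 counts (Nfix in a BL6 BMP library). Of 7 stem cell markers 5 were higher and 2, Nes and Fabp7, lower in each quiescent condition than in EGF/FGF, and 10 of 10 proliferation genes were lower in both quiescent conditions. Among all 13312 tested genes, 40.8% were higher and 38.8% lower in BMP than in EGF/FGF at an FDR under 0.05. In BMP/FGF these shares were 40.9% and 38%. Microglial markers summed to at most 3.61 CPM (counts scaled to a common library total) in any library, with Aif1 and C1qa not listed in the table, and endothelial and mural markers to at most 5.921 CPM, with Cldn5 and Cdh5 not listed. The summed neuroblast markers (Dcx, Sox11, Tubb3, Stmn2, Dlx1 and Dlx2) did move with the conditions, from 204 to 228.5 CPM in EGF/FGF, from 664.1 to 1239 CPM in BMP and from 285.7 to 316.3 CPM in BMP/FGF. Within BMP the sums were 664.1 and 674.9 CPM in ANS4 and 1169 and 1239 CPM in BL6. Of the 5 markers tested, 4 were higher and Sox11 was lower in each quiescent condition than in EGF/FGF. Sox11 averaged 178 CPM in EGF/FGF, the larger part of the sum there, 144 CPM in BMP and 77.7 CPM in BMP/FGF. The part of these markers in the changes of the members was not tested. In bulk samples a change in the cells that carry a transcript and a change in RNA per cell cannot be told apart. The pair of BL6 BMP libraries also differed more from each other than any other pair, with a chi-square of 12.2 per gene against 2.12 to 4.68 for the rest. All 4 members were higher in replicate 2 of this pair, and the members together took 0.1295% of its counts against 0.1106% in replicate 1.

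The members lie on 3 chromosomes (GRCm38, the build called mm10 by the study). Nfia (ENSMUSG00000028565) spans chr4:97772734-98118874 on the plus strand and Nfib (ENSMUSG00000008575) chr4:82290173-82705750 on the minus strand of the same chromosome. Nfic (ENSMUSG00000055053) spans chr10:81396186-81455635 and Nfix (ENSMUSG00000001911) chr8:84699876-84800344, both on the minus strand. Their longest annotated coding sequences ran to 509 codons for Nfia, 570 for Nfib, 461 for Nfic and 494 for Nfix, stop codon included. Between members, 62.4% (Nfic and Nfix) to 73.6% (Nfia and Nfix) of aligned codons encoded the same residue, and within the first 200 codons of the first-named member of each pair this share was 81.5% to 89.6%.

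The stretch of 90 coding bases most alike across the family is shown because it asks whether reads from one member could be counted for another. It lies in exon 2 of each gene, at chr4:97783109-97783198 (plus strand), chr4:82498653-82498742 (minus), chr10:81420682-81420771 (minus) and chr8:84772199-84772288 (minus), GRCm38, read 5′ to 3′ along the transcript. Capitals mark the 23 positions at which the members are not all the same.
Nfia: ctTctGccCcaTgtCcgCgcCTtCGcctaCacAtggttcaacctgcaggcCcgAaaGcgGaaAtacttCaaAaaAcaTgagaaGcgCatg
Nfib: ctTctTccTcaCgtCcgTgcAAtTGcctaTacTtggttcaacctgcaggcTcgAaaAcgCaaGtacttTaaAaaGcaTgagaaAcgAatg
Nfic: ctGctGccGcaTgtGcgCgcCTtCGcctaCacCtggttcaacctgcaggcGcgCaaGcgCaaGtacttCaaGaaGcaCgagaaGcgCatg
Nfix: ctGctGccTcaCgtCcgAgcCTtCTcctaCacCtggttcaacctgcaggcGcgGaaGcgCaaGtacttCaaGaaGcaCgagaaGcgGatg
The 90 bases encode the same residue as Nfia at 29 of 30 codons in Nfib and Nfix and at 30 of 30 in Nfic, while they differ from Nfia at 17 bases in Nfib, 11 in Nfic and 14 in Nfix. No run of more than 17 bases was shared with Nfia within the stretch. Kallisto, the program the authors used to assign reads, works with words of 31 bases, and over all annotated transcripts 0 of 10962 such words of Nfia and 0 of 15027 of Nfib occurred in another member. Nfic (6676 words) and Nfix (7401 words) had 2 words in common. Words shared with genes outside the family made up 0.386% of those of Nfib and 1.62% of those of Nfix, of which 111 lay in G430095P16Rik, a gene inside Nfix on the opposite strand, and 43 words of Nfic lay in its antisense gene Gm16104. Neither of these genes is listed in the count table, and whether the counting used strand is not given in the sources used here. Lyl1, which overlaps Nfix on the opposite strand and encodes a transcription factor of blood cells, had 0 to 4 counts per library.

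Nfib was lower in both quiescent conditions, and in BMP/FGF against EGF/FGF its change was the largest of the 4 members in each line. In EGF/FGF it stood at 361.1 and 356.34 CPM in the ANS4 libraries and at 424.53 and 412.54 CPM in the BL6 libraries. In BMP it was 252.56 and 235.9 CPM in ANS4 and 240.12 and 288.54 CPM in BL6. In BMP/FGF it was 166.13 and 172.8 CPM in ANS4 and 183.96 and 171.21 CPM in BL6. The 3 conditions therefore formed 3 steps with no overlap between them, in both lines. For this and the separations given below, the share of all genes that also did not overlap was not counted. At an FDR under 0.05, 79.6% of all 13312 tested genes differed in BMP against EGF/FGF. The share was 78.9% in BMP/FGF against EGF/FGF and 41.4% in BMP/FGF against BMP.

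The mean level of Nfib was 388.6 ± 34.9 CPM (SD, n = 4) in EGF/FGF, 254.3 ± 23.9 CPM in BMP and 173.5 ± 7.52 CPM in BMP/FGF. The fitted level of Nfib was 1.53-fold lower in BMP (log2 fold change -0.61, SE 0.0645, edgeR quasi-likelihood FDR 9.484e-08) than in EGF/FGF. In BMP/FGF it was 2.23-fold lower (log2 -1.16, SE 0.0653, edgeR FDR 1.688e-11) than in the same EGF/FGF libraries. The direct comparison of BMP/FGF with BMP gave a 1.46-fold lower level (log2 -0.55, SE 0.0649, edgeR FDR 3.714e-06). In each of these comparisons the exact permutation test over 8 libraries gave p = 0.02857, the smallest it can give with 4 against 4. The test divided the libraries without regard to line, so it treats those of both lines as exchangeable.

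**Figure D1:**
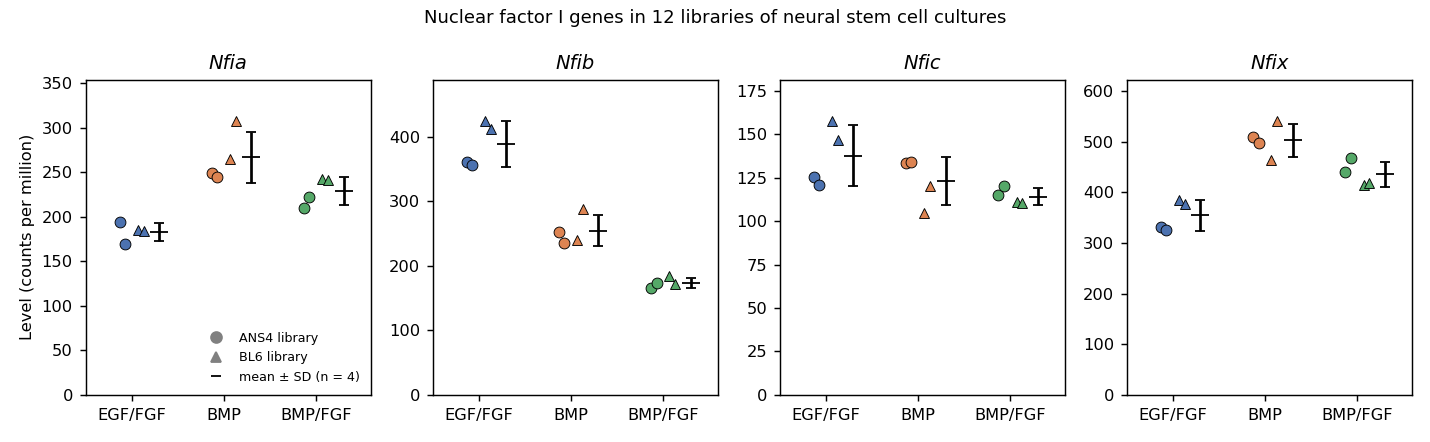
Level of each nuclear factor I gene in CPM (vertical axes from 0, a separate scale for each gene) in the 12 libraries by condition, with circles for ANS4, triangles for BL6 and bars for the mean ± SD of 4 libraries. Nfib steps down from 388.6 to 254.3 to 173.5 CPM on average, whereas Nfia and Nfix are highest in BMP.

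Nfix was higher in both quiescent conditions and highest in BMP. Its levels were 331.33 and 325.28 CPM (ANS4) and 383.88 and 377.46 CPM (BL6) in EGF/FGF. They were 508.66 and 496.94 CPM (ANS4) and 463.18 and 541.04 CPM (BL6) in BMP, and 439.92 and 468.01 CPM (ANS4) and 415.2 and 417.44 CPM (BL6) in BMP/FGF. All quiescent libraries stood above all EGF/FGF libraries, whereas BMP and BMP/FGF overlapped, since 1 ANS4 BMP/FGF library lay above 1 BL6 BMP library.

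On average Nfix rose from 354.5 ± 30.4 CPM (SD, n = 4) in EGF/FGF to 502.5 ± 32.1 CPM in BMP, 1.42-fold (log2 0.50, SE 0.0713, edgeR FDR 3.882e-06). It rose to 435.1 ± 24.6 CPM in BMP/FGF, 1.23-fold above EGF/FGF (log2 0.30, SE 0.0713, edgeR FDR 0.0009995). Between BMP and BMP/FGF it fell by 0.21 on the log2 scale (SE 0.0711, edgeR FDR 0.02704; exact permutation p = 0.05714). That last call was lost without any one of 4 libraries: ANS4 BMP replicate 1 (adjusted p = 0.05529), BL6 BMP replicate 2 (0.07718), or BL6 BMP/FGF replicate 1 (0.08444) or 2 (0.07991).

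Nfia followed the same order as Nfix at a lower level. It was 194.01 and 169.1 CPM (ANS4) and 185.44 and 183.93 CPM (BL6) in EGF/FGF. BMP libraries held 249.64 and 245.04 CPM (ANS4) and 264.79 and 307.72 CPM (BL6), and BMP/FGF libraries 209.34 and 222.66 CPM (ANS4) and 242.86 and 240.98 CPM (BL6). The 3 conditions did not overlap, although the highest BMP/FGF library (242.86 CPM) came close to the lowest BMP library (245.04 CPM).

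Nfia rose from 183.1 ± 10.3 CPM (SD, n = 4) to 266.8 ± 28.6 CPM in BMP, 1.45-fold (log2 0.54, SE 0.0657, edgeR FDR 6.137e-07). It stood at 229 ± 15.9 CPM in BMP/FGF, 1.25-fold above EGF/FGF (log2 0.32, SE 0.0657, edgeR FDR 0.0002474). The count of Nfia was lower in BMP/FGF than in BMP by 0.22 on the log2 scale (-0.22, SE 0.0654, edgeR FDR 0.0124). In the deposited regularized log values (rlog, a log2 scale) this difference was -0.06 (SE 0.0481, limma-trend adjusted p = 0.3591), so the call between the quiescent states rested on which of the deposited tables was read.

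For Nfia the deposited tables parted by library. After centring per gene and per library, its rlog value minus the log2 of its scaled count ran from -0.251 in BL6 BMP replicate 2 to 0.139 in ANS4 BMP/FGF replicate 1. The SD of this distance over the 12 libraries was 0.109 for Nfia, larger than for 96.2% of the 4558 genes that averaged 1000 counts or more, whose median SD was 0.0172. It was 0.0218 for Nfib, 0.00718 for Nfic and 0.00928 for Nfix. By condition the distance of Nfia averaged 0.0448 in EGF/FGF, -0.107 in BMP and 0.0635 in BMP/FGF. The rlog means of Nfia were 11.796 ± 0.0577 in EGF/FGF, 12.174 ± 0.0956 in BMP and 12.115 ± 0.0883 in BMP/FGF (SD, n = 4), so both quiescent conditions stood above EGF/FGF in this table too.

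**Figure D2:**
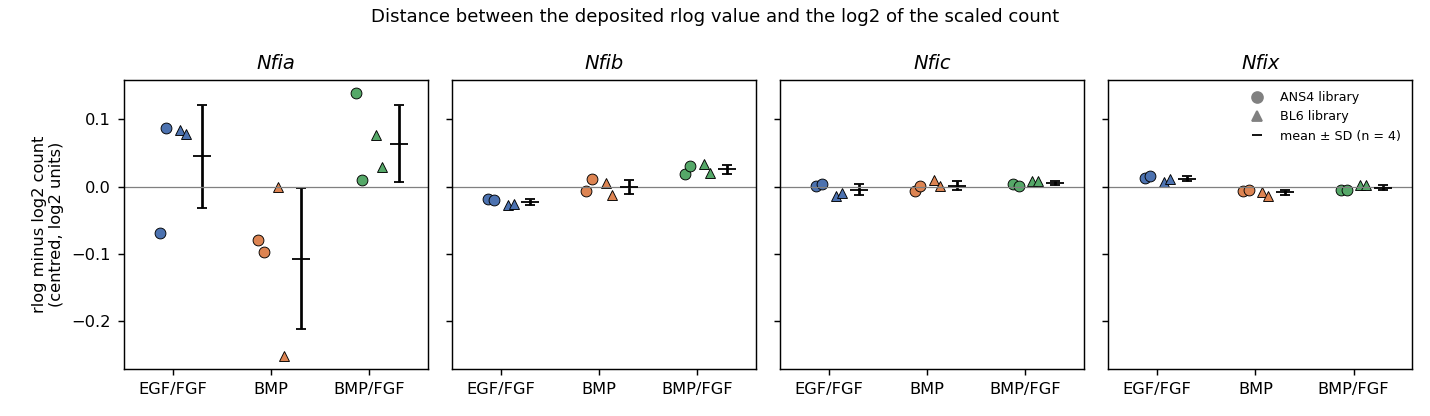
Deposited rlog value minus log2 of the count over its size factor (log2 units, centred per gene and library) for each gene and library, with circles for ANS4, triangles for BL6 and bars for the mean ± SD of 4 libraries. The points of Nfia spread from -0.251 to 0.139, and those of the other members lie close to 0.

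In CPM, which are not scaled by transcript length, Nfic had the lowest mean of the members in every condition. It had 125.16 and 120.93 CPM (ANS4) and 157.7 and 146.68 CPM (BL6) in EGF/FGF, 133.35 and 133.78 CPM (ANS4) and 104.46 and 120.23 CPM (BL6) in BMP, and 115.1 and 120.36 CPM (ANS4) and 110.98 and 110.16 CPM (BL6) in BMP/FGF. The EGF/FGF and BMP libraries overlapped, and so did those of BMP and BMP/FGF.

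The mean of Nfic was 137.6 ± 17.5 CPM (SD, n = 4) in EGF/FGF, 123 ± 13.8 CPM in BMP and 114.2 ± 4.67 CPM in BMP/FGF. The log2 difference between BMP and EGF/FGF was -0.16 (SE 0.0893, edgeR FDR 0.1012), and without ANS4 EGF/FGF replicate 1 or 2 the adjusted p was 0.04645 or 0.02588. BMP/FGF was lower than EGF/FGF by 1.21-fold (log2 -0.27, SE 0.0894, edgeR FDR 0.01059), and without BL6 EGF/FGF replicate 1 the adjusted p was 0.05364. BMP/FGF and BMP differed by -0.11 (SE 0.0895, edgeR FDR 0.3625).

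Counted over the family, BMP against EGF/FGF thus gave 2 members higher and 1 lower, where 40.8% of all 13312 tested genes were higher and 38.8% lower at an FDR under 0.05. BMP/FGF against EGF/FGF gave 2 higher and 2 lower, beside 40.9% and 38% of all genes. BMP/FGF against BMP gave 0 higher and 3 lower, beside 20.1% higher and 21.3% lower among all genes. No member passed a log2 fold change of 1.5 in any comparison. The first and the second comparison share the 4 EGF/FGF libraries.

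Ratios between members inside a library restate the changes above on a scale free of library scaling and are no independent support for them. In all 4 EGF/FGF libraries Nfib was slightly above Nfix in CPM, with ratios of 1.09, 1.1, 1.11 and 1.09. In BMP the ratio was 0.497 and 0.475 in ANS4 and 0.519 and 0.533 in BL6, and in BMP/FGF 0.378 and 0.369 in ANS4 and 0.443 and 0.41 in BL6. The mean log2 ratio of Nfib to Nfix was 0.13 ± 0.0091 (SD, n = 4) in EGF/FGF, -0.98 ± 0.073 in BMP and -1.33 ± 0.12 in BMP/FGF. The ratio was 2.17-fold lower in BMP and 2.75-fold lower in BMP/FGF than in EGF/FGF, and lower by 0.34 on the log2 scale (-0.34) in BMP/FGF than in BMP (exact permutation p = 0.02857 and adjusted p = 0.03956 over 18 comparisons each).

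The ratio of Nfia to Nfib rose 2.22-fold from EGF/FGF to BMP and 2.79-fold from EGF/FGF to BMP/FGF, by the same exact test (adjusted p = 0.03956). Nfib to Nfic fell by 0.45 in BMP and fell by 0.90 in BMP/FGF on the log2 scale. Of 18 comparisons, over 6 pairs and 3 contrasts, 13 passed with an adjusted permutation p of 0.03956. Each of the 13 had p = 0.02857 before adjustment, the smallest this exact test can give. The pairs share members and libraries, so the 13 are not separate results. The share of other gene pairs that would pass was not counted, so this number shows nothing particular to the family. For Nfia and Nfix the mean differences were 0.034 (BMP against EGF/FGF), 0.023 (BMP/FGF against EGF/FGF) and -0.010 (BMP/FGF against BMP) on the log2 scale, none of which passed. With 1 library left out at a time these differences ranged from -0.0031 to 0.0931, from -0.0279 to 0.0828 and from -0.0616 to 0.0377. The mean hides shifts of opposite sign in the lines: in ANS4 the log2 ratio was -0.772 and -0.943 in EGF/FGF and -1.07 in both BMP/FGF libraries, and in BL6 -1.05 and -1.04 in EGF/FGF and -0.773 and -0.792 in BMP/FGF, a difference between lines that was not tested. The ratios with Nfia carry the distance between the deposited tables given above.

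**Figure D3:**
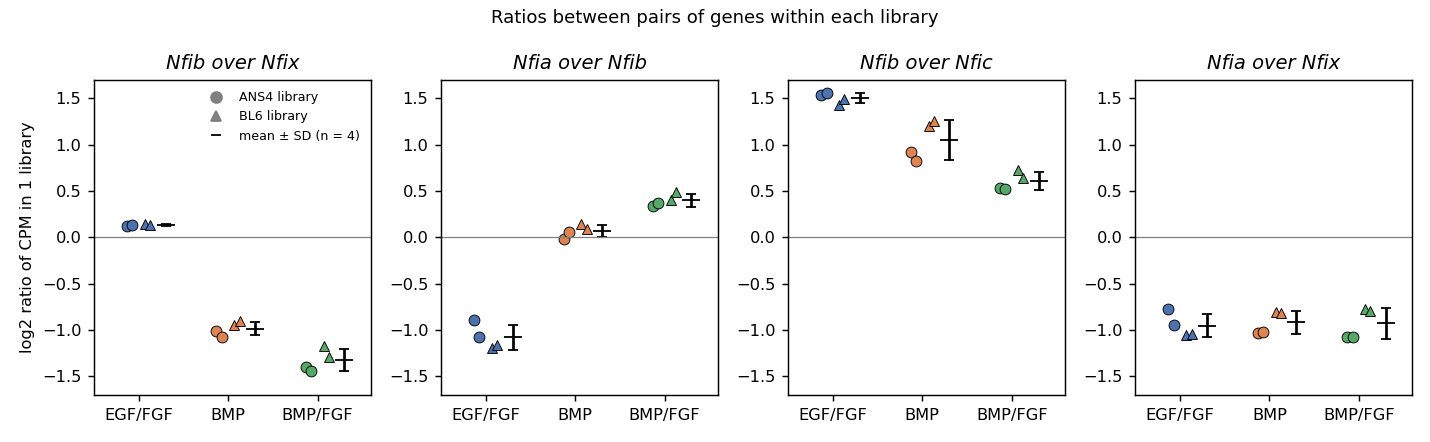
Log2 ratio of the CPM of the first-named to the second-named gene in each library by condition, all panels on 1 scale, with circles for ANS4, triangles for BL6 and bars for the mean ± SD of 4 libraries. Nfib over Nfix drops from 0.13 in EGF/FGF to -0.98 in BMP and -1.33 in BMP/FGF, while Nfia over Nfix stays between -1.07 and -0.772.

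The sum of the 4 members was 1064 ± 85.9 CPM (SD, n = 4) in EGF/FGF, 1146 ± 79.6 CPM in BMP and 951.8 ± 23.3 CPM in BMP/FGF, and the ranges of EGF/FGF (971.6 to 1152 CPM) overlapped those of BMP (1073 to 1258 CPM) and BMP/FGF (930.5 to 983.8 CPM). Nfib made up 36.5% of the summed CPM in EGF/FGF, 22.2% in BMP and 18.2% in BMP/FGF. Nfix made up 33.3%, 43.8% and 45.7%, and Nfia 17.3%, 23.3% and 24.1%, in the same order of conditions.

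Between genes, levels compare only per transcript length, and the deposited counts carry no length. With the median length of the protein-coding transcripts (9239 bases for Nfia, 3294 for Nfib, 2409 for Nfic and 1728 for Nfix), Nfix was the highest in every condition, at 205 ± 18 CPM per kilobase in EGF/FGF, 291 ± 19 in BMP and 252 ± 14 in BMP/FGF (SD, n = 4). Nfib followed with 118 ± 11, 77.2 ± 7.3 and 52.7 ± 2.3, then Nfic with 57.1 ± 7.3, 51 ± 5.7 and 47.4 ± 1.9, and Nfia with 19.8 ± 1.1, 28.9 ± 3.1 and 24.8 ± 1.7. Neighbours in this order did not overlap in any condition, the closest being Nfib (50.4 to 55.8) and Nfic (45.7 to 50) in BMP/FGF. With the longest transcript Nfix stayed first in every condition, but Nfia, Nfib and Nfic no longer kept this order in BMP and BMP/FGF. With the shortest transcript Nfib came first in EGF/FGF (567 against 253 for Nfix) and in BMP (371 against 358).

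Against EGF/FGF, Nfia, Nfib and Nfix had the same sign in both lines, and so did Nfic in BMP/FGF, whereas Nfic in BMP did not. The log2 difference of Nfic in BMP was 0.12 in ANS4 (SE 0.0703, edgeR FDR 0.1361) and -0.44 in BL6 (SE 0.0702, edgeR FDR 1.765e-05). The difference between these changes, BL6 minus ANS4, was -0.56 (SE 0.0994, edgeR interaction FDR 0.002281), in a comparison in which 9.02% of all genes passed. BMP/FGF against EGF/FGF gave -0.06 in ANS4 (SE 0.0706) and -0.46 in BL6 (SE 0.0705), a difference of -0.40 (SE 0.0997, edgeR FDR 0.02865; 4.98% of genes passed). The latter lost its call without any of 7 libraries, with adjusted p from 0.06688 to 0.1404: either ANS4 EGF/FGF library, any of the 4 BMP/FGF libraries, or BL6 EGF/FGF replicate 1.

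Nfix rose in ANS4 by 0.61 in BMP and 0.47 in BMP/FGF (SE 0.0681 each), whereas BL6 gave 0.40 (SE 0.0678) and 0.13 (SE 0.0679, edgeR FDR 0.09228). The difference between the lines in BMP/FGF against EGF/FGF was -0.34 (SE 0.0961, edgeR FDR 0.05031), just short of the threshold. It passed without BL6 BMP replicate 1 (adjusted p = 0.004522) or 2 (0.004483), which enter only the shared estimate of the spread. For Nfib the lines gave -0.55 and -0.66 in BMP and -1.08 and -1.24 in BMP/FGF, in ANS4 and BL6, and for Nfia 0.45 and 0.63 in BMP and 0.25 and 0.39 in BMP/FGF. No interaction of Nfia or Nfib passed with all libraries, and that of Nfia in BMP against EGF/FGF passed without BL6 BMP replicate 1 (0.29, adjusted p = 0.03831), as that of Nfix did without replicate 2 (-0.33, adjusted p = 0.01025). In BMP/FGF against BMP, where 13.5% of all genes differed between lines, none of the members did by edgeR, and 0 had an unadjusted p under 0.05. By DESeq2 the count was also 0. Without BL6 BMP replicate 1 Nfix passed here (adjusted p = 0.04114), and without replicate 2 Nfic did (0.04659).

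Averaged over conditions, 0 of 4 members differed between BL6 and ANS4 by edgeR, where 1.8% of all genes did, and DESeq2 gave 0 as well. Nfia and Nfib had unadjusted p of 0.02305 and 0.01962 (log2 0.13 and 0.14), with adjusted p of 0.1931 and 0.18. Within EGF/FGF Nfic was higher in BL6 by 0.31 (SE 0.0699, edgeR FDR 0.01422), and within BMP it was lower by 0.25 (-0.25, SE 0.0706, edgeR FDR 0.01599).

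**Figure D4:**
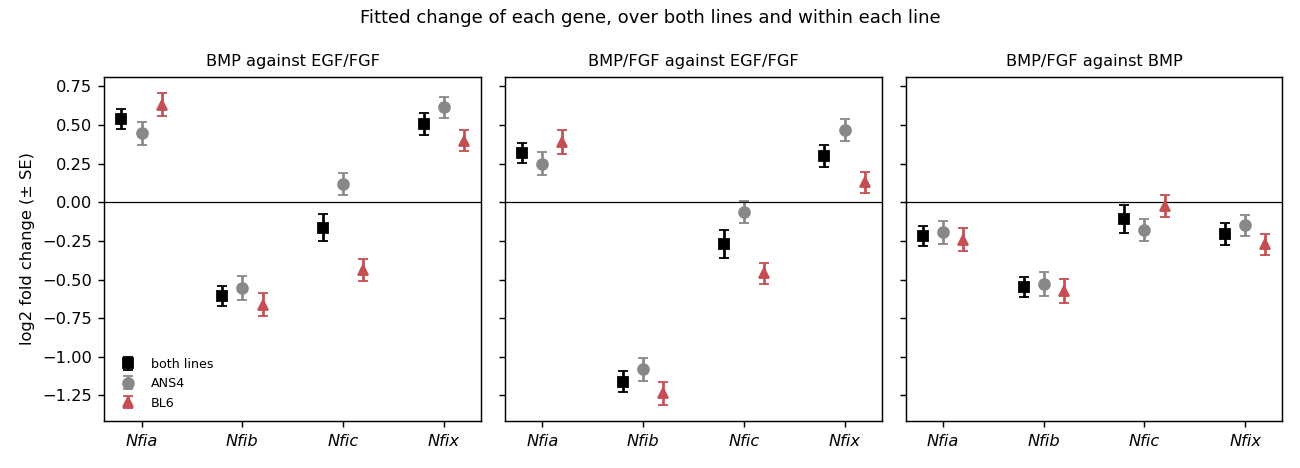
Fitted log2 fold change (vertical axis, with SE bars) of each gene in the 3 comparisons, over both lines (black squares) and within ANS4 (grey circles) and BL6 (red triangles). For Nfic in BMP against EGF/FGF the lines lie at 0.12 and -0.44, on either side of 0.

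Genes known as targets of nuclear factor I proteins included higher and lower genes in every comparison, as all tested genes did. Of 14 listed genes 12 could be tested (Gabra6 is not listed in the table and Insc had at most 8 counts). In BMP against EGF/FGF 6 were higher and 3 lower, beside 40.8% and 38.8% of all genes, with a median log2 fold change of 0.891 beside 0.0192 over all tested genes. In BMP/FGF against EGF/FGF 7 were higher and 3 lower, beside 40.9% and 38% (median 0.487 beside 0.0216), and in BMP/FGF against BMP 4 were higher and 4 lower, beside 20.1% and 21.3% (median -0.129 beside -0.00355).

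Gfap, the intermediate filament of astrocytes, rose from 121 ± 28.7 CPM in EGF/FGF to 980 ± 96.5 CPM in BMP and 1927 ± 53.3 CPM in BMP/FGF (SD, n = 4), by 3.04 and 4.01 on the log2 scale (SE 0.123 and 0.128, edgeR FDR 1.861e-13 and 8.423e-15). Fabp7, a fatty acid binding protein of radial glia, fell by 2.39 in BMP (SE 0.143, edgeR FDR 3.555e-11) and by 0.81 in BMP/FGF (SE 0.136, edgeR FDR 2.97e-05), and was higher in BMP/FGF than in BMP. Ezh2, a histone methyltransferase for which repression by nuclear factor I has been described, fell (-1.60 in BMP and -1.92 in BMP/FGF), and Hes1, a Notch target, fell by 1.40 in BMP and also fell in BMP/FGF. Sox9, a transcription factor that acts with Nfia in gliogenesis, rose by 2.03 and 1.90, and Apcdd1 and Mmd2, described as targets of that pair, rose by 1.68 and 1.89 in BMP and by 0.77 and 3.03 in BMP/FGF. Zcchc24, described with them, differed by -0.08 in BMP (SE 0.0577, edgeR FDR 0.2228) and rose by 0.21 in BMP/FGF. Cdh2, which encodes N-cadherin, and Bbx did not pass in any of the 3 comparisons (largest distance from 0 at -0.15).

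**Figure D5:**
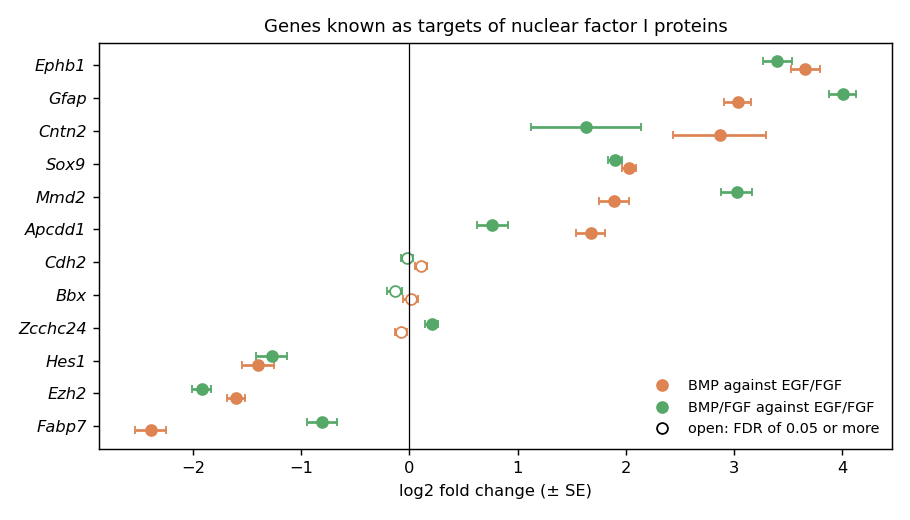
Log2 fold change (horizontal axis, with SE bars) of the 12 tested target genes in BMP (orange) and BMP/FGF (green) against EGF/FGF, with open circles where the FDR was 0.05 or more. Gfap lies at 3.04 and 4.01, while Fabp7, Ezh2 and Hes1 lie below 0 in both comparisons.

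Of 16 regulators that act beside the family in gliogenesis, 9 were higher and 6 lower in BMP (median 0.416), and 8 were higher and 7 lower in BMP/FGF (median 0.0118), against EGF/FGF, beside 40.8% and 38.8%, and 40.9% and 38%, of all genes. Pou3f2 (also called Brn2) rose by 0.95 and 0.78, Stat3, which relays cytokine signals, by 0.43 and 0.64, and Id1, a BMP target, by 1.29 and 0.98, whereas Id3, also a BMP target, fell (-0.59 and -0.53). Notch1, a receptor whose signal has been described to induce Nfia, fell (-0.47 and -0.85). Olig2, a transcription factor of progenitors and the oligodendrocyte lineage, fell (-1.14 and -1.09). Of 12 astrocyte genes 11 rose in BMP and 12 in BMP/FGF, with medians of 1.68 and 1.97, and 9 were higher and 1 lower in BMP/FGF than in BMP, where 20.1% of all genes were higher and 21.3% lower.

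The genes whose levels were most like each member over the 12 libraries, by Pearson's r of log2 CPM among the 9703 genes that averaged 10 CPM or more, are given as a description, since all points share libraries and 3 conditions. They were Ythdf1 (r = 0.993), Rbm14 (0.99) and Dhx16 (0.987) for Nfib, and Mycn (0.964) and Disp3 (0.962) for Nfix. For Nfia they were Tug1 (0.972), Ube2ql1 (0.968) and Acvr2b (0.967), and for Nfic Slc6a17 (0.936), Vangl1 (0.903) and Dclre1b (0.897). An r above 0.9 was reached by 8.82% of these genes for Nfib, 4.33% for Nfia, 2.39% for Nfix and 0.0206% for Nfic. In rlog values the r of Tug1 with Nfia was 0.854 and that of Vangl1 with Nfic 0.631. Among the members themselves, r over the 12 libraries was 0.865 for Nfia and Nfix, 0.698 for Nfib and Nfic, and negative for the other pairs.

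Promoter sequence from RefSeq (GRCm38.p6) was matched for 3 of 4 members, with 1 window for Nfia, 1 for Nfic and 4 for Nfix; Nfib had no entry. In the 250 bases before each start, both strands were searched for the full nuclear factor I site (TTGGC and GCCAA with 5 bases between), the single arm TTGGC, which is also part of the full site, the RBPJ motif TGGGAA and the SMAD motif GGCGCC. Over all 32851 windows, 0.0365% held the full site, 41.5% the single arm, 21.6% the RBPJ motif and 9.59% the SMAD motif. None of the 6 windows of the family held the full site or the RBPJ motif, 2 Nfix windows held the single arm, and 1 Nfix window held the SMAD motif, beginning 64 bases before the start. That match is shown because SMAD proteins relay the BMP signal, with 30 bases at chr8:84780129-84780158 (minus strand), the motif in capitals.
Nfix: caacagagcgagGGCGCCtcttttcttcct
The match is a description and no binding was measured. The Nfia window, at chr4:97581693-97581942, lies outside the GENCODE span of the gene.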

How the data were processed

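Bulk RNA-seq libraries were made with a low input protocol for BGISEQ-500RS from RNA with a RIN of at least 9.6. Per the labels and methods, the authors trimmed reads with Trim Galore 0.5.0, quantified them with kallisto 0.44.0 on the mm10 transcriptome, summed them to genes with Tximport and deposited estimated counts as whole numbers. A further deposited table holds log2 (rlog) values from DESeq2 1.27.32. All per-sample columns were used.

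Genes were kept by filterByExpr, scaled by TMM and tested with edgeR 4.0.16 (R 4.3.3) quasi-likelihood fits of condition and line over 12 libraries, two-sided, with Benjamini-Hochberg adjustment (FDR) over all 13312 genes and a threshold of 0.05. Line by condition interactions and changes within a line used 6 groups. Estimated counts were already whole, and each library held 18069052 to 19451818 of them. Ratios and single levels were compared by two-sided exact permutation over 70 divisions, on log2 of CPM with 0.1 added (SciPy 1.17.1). These divisions were not kept within line. GENCODE vM21 gave positions and transcripts. Alternatives were DESeq2 1.42.0, its size factors, library size alone, no filter, limma 3.58.1 on rlog values, other designs, and each library left out. On simulated data with 200 changed genes, edgeR recovered 186 for BMP/FGF against BMP with 4 false calls, and 172 for its interaction with line with 10 false calls. At the smaller planted size it recovered 87 of 97 and 62 of 85. Every planted change was larger than that of any member in these comparisons, so recovery of changes as small as theirs was not tested.

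Genes named were the members, the 3 most correlated genes of each, and members of fixed lists; 1 correlated gene is not reported here. Members and lists were chosen with earlier results of these data known.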

Additional observations from a re-analysis of the deposited data

Results flagged for a closer look

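The change of Nfic differed between the lines, by a test of the difference itself, in both comparisons with EGF/FGF. BL6 minus ANS4 was -0.56 on the log2 scale (edgeR interaction FDR 0.002281) for BMP and -0.40 (FDR 0.02865) for BMP/FGF. Both comparisons share the EGF/FGF libraries, in which Nfic was 146.68 and 157.7 CPM in BL6 against 120.93 and 125.16 CPM in ANS4. With 1 library left out at a time the first difference ranged from -0.66 to -0.46 and passed each time. The second ranged from -0.45 to -0.35 and lost its call without any of 7 libraries. It also lost its call without a filter on low counts (-0.39, edgeR adjusted p = 0.05005). Dixon's test was run on 12 groups of 4 libraries (4 members in 3 conditions), and 0 passed. The largest gap was 0.685 of its group's range, under the critical value for 4 samples. With so few libraries, and both lines in each group, this test cannot show that no library stood apart. The BL6 BMP pair differed most (chi-square of 12.2 per gene), and all 4 members were higher in its replicate 2.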

How the results depend on the processing

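Nfib and Nfia kept their direction and their side of the threshold against EGF/FGF in every alternative run, and so did Nfix, apart from BMP/FGF in the BL6 libraries alone (0.11, adjusted p = 0.1933). On rlog values Nfia between BMP/FGF and BMP was -0.058. With ANS4 alone, Nfic was -0.065 in BMP/FGF against EGF/FGF and -0.18 (adjusted p = 0.02062) against BMP, and with BL6 alone -0.45 in BMP against EGF/FGF. The interaction of Nfix in BMP/FGF against EGF/FGF passed with library size alone (-0.38), the DESeq2 Wald test (-0.34) and only the 8 libraries compared (-0.35), giving 2 members called with each, and that of Nfic without a filter was -0.39 (adjusted p = 0.05005), giving 0. Within EGF/FGF alone, where 1437 of 12318 genes differed between lines, 3 members were higher in BL6, Nfib by 0.22, Nfic by 0.31, which reversed its sign over all libraries, and Nfix by 0.22. Of these, Nfic also passed within EGF/FGF in the fit of 6 groups, and Nfib and Nfix did not (FDR 0.08318 and 0.06825). Within BMP/FGF alone, where 1163 of 12650 genes differed, Nfia was higher in BL6 by 0.16.

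Leaving out 1 library at a time gave these ranges. Called members numbered 1 to 2, 0 to 2 and 0 to 1 for the interactions in BMP against EGF/FGF, BMP/FGF against EGF/FGF and BMP/FGF against BMP. Nfix in BMP/FGF against BMP ranged from -0.25 to -0.17. Nfic ranged from -0.24 to -0.081 in BMP and from -0.34 to -0.19 in BMP/FGF against EGF/FGF. Interactions in BMP against EGF/FGF ranged from 0.074 to 0.29 (Nfia) and from -0.33 to -0.11 (Nfix), in BMP/FGF against EGF/FGF from -0.45 to -0.35 (Nfic) and from -0.38 to -0.30 (Nfix), and in BMP/FGF against BMP from 0.062 to 0.26 (Nfic) and from -0.23 to -0.0068 (Nfix). For these the cause was not tested. Ratio calls fell to 0 and 0 because the smallest p with 4 against 3 is 0.05714, which says nothing about their stability. Of 12 places in the order per length, 6 were kept with the longest and 3 with the shortest transcript.

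Libraries of the same replicate number showed no shared shift (correlations of deviations from -0.0711 to 0.0529). Whether they were prepared together is not given by the labels. With the replicate block, the members called were 3 in BMP against EGF/FGF, 4 in BMP/FGF against EGF/FGF and 3 in BMP/FGF against BMP, and no call changed (Nfix in BMP/FGF against BMP, adjusted p = 0.04924; Nfic interaction in BMP/FGF against EGF/FGF, 0.04861). Each member had at least 1972 counts in every library, and each line and condition 2 libraries.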

Other observations

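In BMP the log2 ratio of Nfia to Nfix was -1.03 and -1.02 in ANS4 and -0.806 and -0.814 in BL6, so that in ANS4 it was lower and in BL6 higher than in EGF/FGF, as in BMP/FGF. This difference between lines was not tested.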
